A study of Gossypium hirsutum with 12 samples.

Results

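The 5 genes described here encode enzymes of flavonoid synthesis that act after chalcone synthase. They are the chalcone isomerase CHI-1 (Gorai.013G023400), the flavonoid 3',5'-hydroxylase F3'5'H (Gorai.001G134900), the dihydroflavonol reductase DFR (Gorai.009G200600) and a pair of neighboring 3GT genes (Gorai.012G009500 and Gorai.012G009400). Other enzymes of the route, such as anthocyanidin synthase, are not among them. The 5 genes were chosen by gene ID from the 37500 genes of the authors' deposited table. RNA of cotton fiber (Gossypium hirsutum) was sequenced in 6 lines at 0 and 12 d post-anthesis (DPA), when fiber cells emerge and when they elongate, with 1 library per line and stage and 12 in all. The wild types were BCF with brown, GCF with green and WCF with white fibers. Lines 5#, 6# and 24#, also brown, green and white, were T1 progeny of a single brown-cotton plant transformed with a GhCHI-1 hairpin under the CaMV35S promoter, which is active in most tissues. All 6 lines were sequenced at both stages, and no age was given beyond days post-anthesis. The paper's methods speak of ovules and fibers, whereas the labels name fiber only.

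Flavonoids are built from a chalcone, which chalcone synthase makes and chalcone isomerase closes to a flavanone. Hydroxylases such as F3'5'H decorate the ring, DFR reduces dihydroflavonols toward colored anthocyanidins and toward proanthocyanidins, the tannins associated with brown cotton, and 3GT attaches a sugar at the 3 position. In cotton fiber these products contribute to color.

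The authors' deposited table gave 1 mean normalized count per gene and stage and no value per library, so brown, green and white fibers were not separated. Every mean of up to 1 was a sum of whole multiples of 6 values per stage (4438 of 4438 means at 0 DPA and 4341 of 4341 at 12 DPA, to a tolerance of 1e-09), each being what 1 read in 1 library adds. Their size factors spanned 0.487 to 1.67 at 0 DPA and 0.770 to 1.30 at 12 DPA, equivalent to an estimated 1482909 to 5075787 and 3748760 to 6309377 reads on genes per library. The table does not tell which library belongs to which line. Of 5 fiber marker genes, 5 had higher means at 12 DPA (log2 ratios of 2.68 for GhMYB25 to 7.84 for PRP5), and all 5 were detected at 0 DPA, PRP5 at 3.22 normalized counts and FSltp1 at 515. The markers were drawn from the study's lists of genes that changed between stages. The part that fiber content plays in the ratios below was not tested, and more fiber cells and more RNA per cell cannot be told apart.

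The later stage had the higher authors' mean in all 5 genes. In each, the 12 DPA mean was at least 2-fold the 0 DPA mean, a ratio passed by 24.3% of the 33463 genes with a mean above 0. At 4-fold, 3 of the 5 (DFR and both 3GT genes) passed, against 13.1% of genes. Of the members, 4 had a mean over both stages of at least 10, and these 4 passed 2-fold, as did 21.8% of genes with such a mean. Gorai.012G009500, with 3.29 normalized counts at 0 DPA, reached this mean only through 12 DPA, so its pass was fixed in advance. The summed counts of all genes were themselves higher at 12 DPA (log2 ratio 0.68). With each stage scaled by this sum, 5 members still passed 2-fold, against 15.8% of genes, and 2 (DFR and Gorai.012G009500) passed 4-fold, against 9.54%. These shares count every gene without a read at 0 DPA as passing. Gorai.012G009400, which had none either, was instead counted at a lower bound, 3.07-fold when scaled. Means of the 5 genes summed to 5132 normalized counts at 0 DPA and 22632 at 12 DPA, which was 4.41-fold higher. Without values per line there is no spread to test against, so no p-value is given for the 3 abundant genes or of Gorai.012G009500. The counts were not divided by gene length, and lengths of these gene models were not used here. The order of the genes is therefore an order of counted reads.

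**Figure D1:**
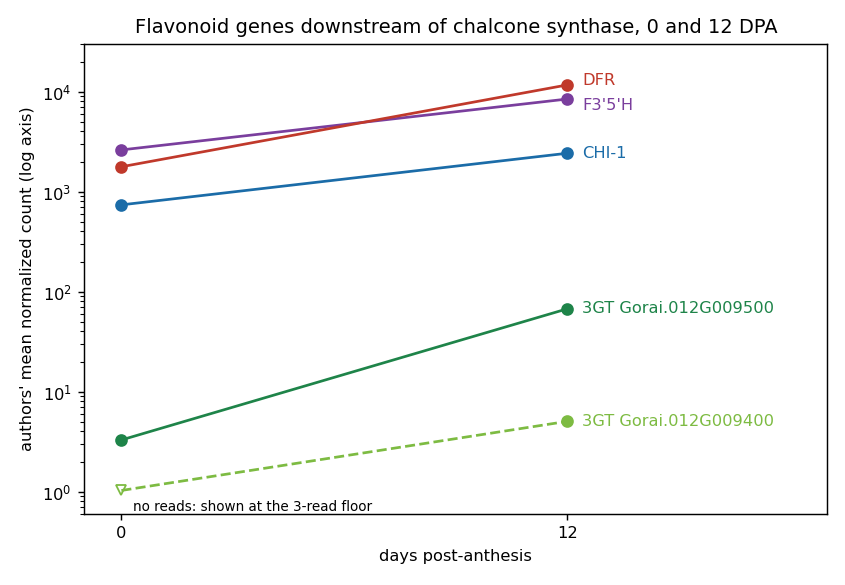
Authors' mean normalized count (log axis) of each gene at 0 and 12 DPA, each point being 1 mean over 6 libraries. DFR passes F3'5'H between the stages, from 1775 against 2616 to 11689 against 8447, and both 3GT genes lie far below. Gorai.012G009400 had no read at 0 DPA and is drawn at the floor of 1.03.

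CHI-1 closes the ring of the chalcone and was the gene targeted by the hairpin in 3 of the 6 lines. The study tied each gene name to a cotton transcript record and gave a pair of PCR primers for each. The pairs are shown as the study's own PCR assays under these names, although the counts were not made with them. Whether the primers lie in the 5 counted genes was not checked. The capitals mark the last 5 bases at the 3′ end, from which the polymerase extends.
CHI-1 forward: gagtttttcagagacgtggtTACAG
CHI-1 reverse: ttctggtactgagctatcttTGGAG
F3'5'H forward: atttcatccgtcgtcttctcAGTAA
F3'5'H reverse: ctcggaccatactcagcAAACA
DFR forward: ggaacgaagctcattattcGATCA
DFR reverse: tggtgggaacattatattcaGGGTA
3GT forward: gcacccaacaatcaaacAACTC
3GT reverse: gagatgaaggaagaGTGCC

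The authors' mean of CHI-1 was 738 normalized counts at 0 DPA and 2423 at 12 DPA. CHI-1 ranked 449th by count at 0 DPA and 213th at 12 DPA among all genes. Its log2 ratio of 12 over 0 DPA was 1.72, and counting error alone could move it by 0.067 at most (95%), since at least 2156 reads lay behind the 0 DPA mean. Such limits do not cover differences between lines. Reads from the hairpin that fell on CHI-1 cannot be told apart from those of the gene, and the 3 hairpin lines are not separated from the others in either mean.

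F3'5'H, the cytochrome P450 that hydroxylates the B ring at the 3' and 5' positions, had authors' means of 2616 and 8447 normalized counts. At 0 DPA it was the highest of the 5 genes. It held rank 36 at 0 DPA and rank 37 at 12 DPA, although its mean was 3.23-fold higher at the later stage. Its log2 ratio was 1.69, close to the 1.72 of CHI-1, and counting error could move it by 0.035 (95%). The 2 ratios differ by less than their combined counting error.

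DFR, which commits dihydroflavonols to anthocyanidins and proanthocyanidins, had authors' means of 1775 and 11689 normalized counts, the largest difference in counts among the 5 genes. It went from rank 74 to rank 25, and from second to first among the 5. The log2 ratio was 2.72, with a counting error of 0.041 (95%). The ratio of DFR thus exceeded those of CHI-1 and F3'5'H by more than counting error. Whether it did so beyond the spread between lines was not tested.

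Among the 21672 genes with a mean over both stages of at least 10 and reads at both stages, the median log2 ratio was -0.03 and the upper quartile was 0.84. CHI-1 stood at percentile 88.4 of these ratios, F3'5'H at 88.2, DFR at 94.7 and Gorai.012G009500 at 97.8. With 3.29 normalized counts at 0 DPA, Gorai.012G009500 entered this set only through 12 DPA, so its high percentile follows in part from the filter. Abundant genes gave a different picture. Of 1367 genes whose mean reached 500, 55.5% were at least 2-fold higher at 12 DPA and the median log2 ratio was 1.16. Within that set CHI-1 and F3'5'H stood at percentiles 66.6 and 65.7, and DFR at 85.6. A 2-fold difference was therefore common in this set, although most of its genes were counted less often than F3'5'H and DFR.

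**Figure D2:**
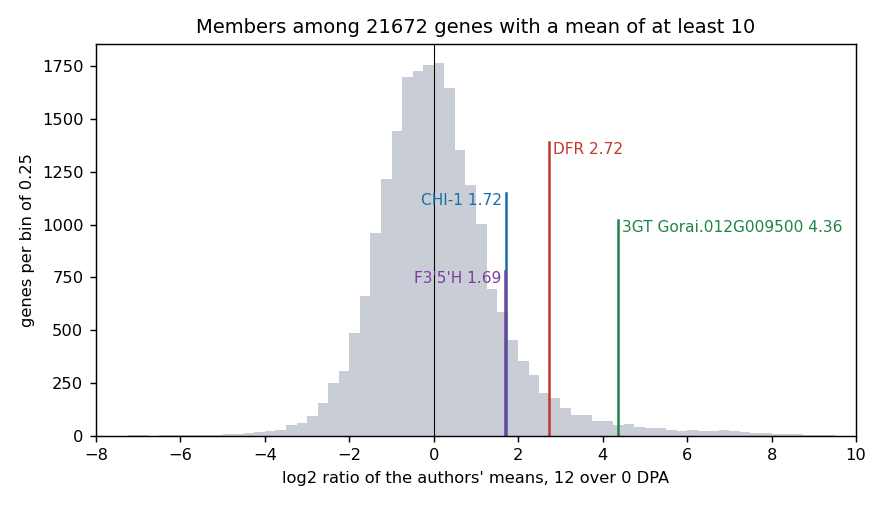
Number of genes (y axis, bins of 0.25) by the log2 ratio of the authors' means, 12 over 0 DPA (x axis), for 21672 genes with a mean of at least 10. The colored lines mark 4 of the 5 genes, with CHI-1 and F3'5'H together at 1.72 and 1.69, DFR at 2.72 and Gorai.012G009500 at 4.36. Gorai.012G009400 had no read at 0 DPA and no ratio.

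A ratio between 2 genes at one stage depends on their lengths, but its change between stages depends neither on length nor on the scaling of the stages. F3'5'H was counted 3.54 times as often as CHI-1 at 0 DPA and 3.49 times as often at 12 DPA. Both genes kept nearly the same proportion. DFR was counted 2.40 times as often as CHI-1 at 0 DPA and 4.82 times as often at 12 DPA, so this ratio was 2.01 times as large at the later stage. Relative to F3'5'H, DFR went from 0.679 to 1.38. CHI-1 moved the other way relative to the upstream chalcone synthase CHS2 (Gorai.005G035100), from 0.575 to 0.336. This direction depends on the chalcone synthase chosen. The log2 ratio of CHS4 was 1.65 (counting error of up to 0.67), just below the 1.72 of CHI-1. Those of the other chalcone synthase genes listed, 2.23 to 4.20, were above it. Both CHI-1 means include the lines with the hairpin against this gene. In them the paper reports CHI-1 suppressed in the white line and reduced in the brown line at the last stage it measured. The part of the hairpin in the ratios that involve CHI-1 was not tested. The ratio of DFR to F3'5'H does not involve CHI-1, but both means include the hairpin lines as well. In the RNAi plants the paper reports flavonoid pathway expression suppressed relative to wild types. The part of these lines in the ratio of DFR to F3'5'H was not tested either. Of the summed counts of the 5 genes, F3'5'H held 51.0% at 0 DPA and 37.3% at 12 DPA, DFR 34.6% and 51.6%, and CHI-1 14.4% and 10.7%.

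**Figure D3:**
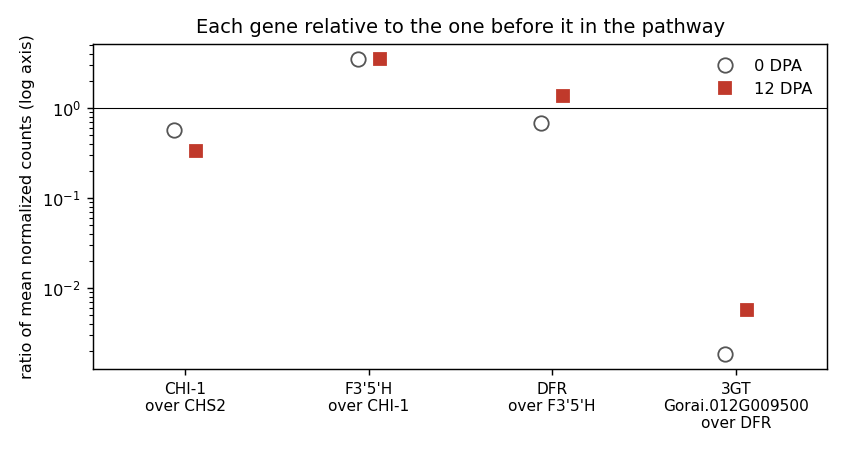
Ratio of the authors' mean normalized counts of each gene to that of the gene before it among those compared here (log axis). Circles (open) are 0 DPA and squares (red) are 12 DPA. The genes are in pathway order but not all are consecutive steps, as enzymes such as anthocyanidin synthase are not among them. F3'5'H over CHI-1 is at 3.54 and 3.49, DFR over F3'5'H crosses 1, from 0.679 to 1.38, and 3GT over DFR is lowest at both stages. All means include the lines with the hairpin against CHI-1.

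3GT adds glucose to the 3 position of flavonoids, which makes anthocyanidins stable and soluble. Both 3GT genes were matched by the study to the same transcript record and lie side by side in the numbering of the gene IDs. Reads that align to both would fall under the entry for alignments that are not unique, and the means of both may then be too low. That entry held 14.2 times the summed counts of all genes at 0 DPA and 1.88 times at 12 DPA in the authors' deposited table. Its part in the 3GT means, and in their ratios between the stages, was not tested.

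Gorai.012G009500 was the more abundant of the pair, with authors' means of 3.29 normalized counts at 0 DPA and 67.4 at 12 DPA. Its 0 DPA mean could be resolved into reads per library, because a single set of whole reads gave the deposited value. From the deepest to the shallowest library these were 9, 7, 3, 5, 2 and 0 reads, 26 in all. Divided by the size factors they were 5.40, 4.91, 2.57, 4.80, 2.04 and 0 normalized counts. The gene was thus read in 5 of 6 libraries before elongation, and the exact Poisson 95% interval of the shallowest, with 0 reads, reached up to 7.57 normalized counts. The interval of the highest, which began at 2.47, overlapped that of every other, which is no test of a difference between libraries. Intervals cover counting error only.

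At 12 DPA, 4837 sets of whole reads would give the deposited mean of Gorai.012G009500, so its libraries could not be resolved and the stages were not tested. As the mean over 6 libraries was 67.4, at least 1 library lay at or above that value, and so above the 5.40 of the highest 0 DPA library. The ratio of the means was 20.5 (log2 4.36). Counting error could move the log2 ratio by 0.96 at most (95%), a limit that takes the fewest reads the means allow, 9 at 0 DPA. The 26 reads resolved at 0 DPA would give a narrower limit, which was not computed. Leaving out each 0 DPA library in turn gave log2 ratios of 4.09 to 4.56. Even so, DFR was counted 540.1 times as often as Gorai.012G009500 at 0 DPA and 174 times as often at 12 DPA. Relative to CHI-1, this 3GT gene was 6.24 times as high at 12 DPA as at 0 DPA, but the part of the hairpin lines in the CHI-1 means was not tested.

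Gorai.012G009400 had no read in any of the 6 libraries at 0 DPA and an authors' mean of 5.04 normalized counts at 12 DPA. That mean was also given by a single set of reads, which held 10, 2, 1, 2, 7 and 7 reads from the deepest to the shallowest library, 29 in all. The normalized counts were 7.72, 1.90, 0.957, 2.06, 8.54 and 9.09. All 6 libraries at 12 DPA had a read and none at 0 DPA did, so the stages did not overlap. The difference of the means was 5.04 normalized counts (exact permutation test, two-sided, p = 0.00216, n = 6 and 6), and this is the smallest p that 6 against 6 libraries can give. Each library behind it came from another line, so the spread includes that between colors and between wild-type and hairpin plants. With the stages paired by line, every difference equals a 12 DPA value whichever library belongs to which line, and all 6 were above 0 (exact permutation of signs, two-sided, p = 0.0312, the smallest that 6 pairs can give). The gene stands in the study's tables of genes called as changed in these libraries, so neither p is independent evidence of the difference. As a floor for 0 DPA, 3 reads in the shallowest library would have given a mean of 1.03. Against it Gorai.012G009400 was at least 4.91-fold higher at 12 DPA. Among 588 genes with resolved reads, a 12 DPA mean of 4 to 6 and a 0 DPA mean of at most 6, every 12 DPA library lay above every 0 DPA library in 63, or 10.7%. Of these, 17 genes were, like Gorai.012G009400, without a read at 0 DPA and read in every library at 12 DPA. The limit on the 0 DPA mean leaves out genes far higher at 0 DPA, so the 10.7% covers a single direction, and 0 genes separated the other way.

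**Figure D4:**
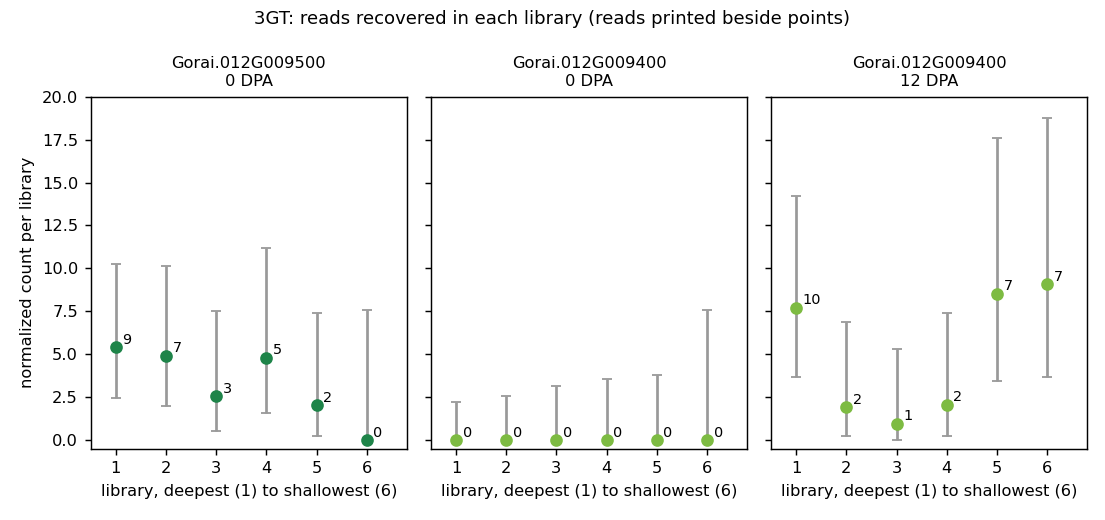
Normalized counts of both 3GT genes in each library whose reads could be resolved, with exact Poisson 95% intervals (gray bars) and the number of reads beside each point. Libraries are numbered within a stage from the deepest (1) to the shallowest (6), are not assigned to lines, and do not correspond between stages. Gorai.012G009400 has 0 reads in 6 libraries at 0 DPA and 1 to 10 reads at 12 DPA.

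Between the pair, Gorai.012G009500 was counted 13.4 times as often as Gorai.012G009400 at 12 DPA, and at 0 DPA it had 26 reads against 0. Together they made up 3.29 of the 5132 normalized counts of the 5 genes at 0 DPA and 72.4 of 22632 at 12 DPA, and this share was 0.0640% at 0 DPA. The smallest counts in the set were thus found at the last of these steps, and so was the largest ratio. At 12 DPA the 2 genes lay at percentiles 69.8 and 37.8 of all genes, whereas DFR, F3'5'H and CHI-1 lay at 99.4 or above.

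The genes next to the 5 in the numbering of the IDs mostly did not share these patterns. Gorai.013G023500 and Gorai.013G023600, which follow CHI-1, were listed at 0 at both stages, and Gorai.013G023300 before it had authors' means of 1.67 and 3.05 normalized counts. On either side of F3'5'H, Gorai.001G134800 had 52.6 and 67.0, and Gorai.001G135000 had 0.402 and 0. Directly before DFR, Gorai.009G200500 went with it in direction, from 139 to 2088 normalized counts (15.0-fold), while Gorai.009G200700 after it had 390.5 and 426. Beside the 3GT pair, Gorai.012G009300, matched by the study to a gland development related protein record, had 133 and 1830 normalized counts, a ratio of 13.8. On the far side of the pair, Gorai.012G009600 was listed at 0 at both stages, and Gorai.012G009700 was lower at 12 DPA (434 and 124). No source used here says whether strand was used in counting, so overlapping genes could share reads.

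Of 8 other genes of the pathway that the study's tables paired with an ID, 8 had higher authors' means at 12 DPA and 7 were at least 2-fold higher, against 24.3% of genes with a mean above 0. These tables list genes called as changed in the same libraries, so this count is no independent evidence of direction, and the same holds for the 5 downstream genes, which stand in those tables too. Scaled by gene sums, 5 of the 8 passed 2-fold, against 15.8% of genes with a mean above 0. The median log2 ratio was 2.36 over the 8 genes and 2.30 over the 5 downstream genes, with Gorai.012G009400 at its lower bound. PAL (Gorai.007G373600), the enzyme that turns phenylalanine into the first phenylpropanoid, was the one below 2-fold, with 56.6 and 110.3 normalized counts. The record named chalcone synthase 1 (Gorai.011G161300) had 1134 and 5318 normalized counts, near CHS2 with 1283 and 7212. CHS3 (Gorai.006G000200) had 63.4 and 429, and CCR1 (Gorai.003G055600), a cinnamoyl-CoA reductase of the lignin branch, had 107 and 1356. GhTTG1 (Gorai.004G125200), a WD-repeat protein whose Arabidopsis counterpart TTG1 acts with MYB and bHLH factors on flavonoid genes, had 72.5 and 198. Log2 ratios of the chalcone synthase genes ran from 1.65 (CHS4) to 4.20 (CHS6), which spans those of CHI-1, F3'5'H and DFR.

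The genes most like each of the 5 were sought by distance in log2(authors' mean + 1) at the 2 stages. Nearest to CHI-1 was Gorai.012G028300 (722.6 and 2276 normalized counts, distance 0.096), and nearest to F3'5'H was Gorai.002G248000 (2357 and 7596, distance 0.21). DFR had no gene as close, the nearest being Gorai.013G208000 (1628 and 9009, distance 0.40). For Gorai.012G009500 it was Gorai.002G229500 (3.11 and 65.8, distance 0.070), and for Gorai.012G009400 it was Gorai.006G070500 (0 and 4.94, distance 0.025). With 2 means per gene, likeness rests on 2 points, and many genes lie close to the low ones.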

How the data were processed

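As stated in the methods of the paper, with versions from the submitters' processing notes, the authors trimmed reads (Trimmomatic 0.32), aligned them to the Gossypium raimondii genome (JGI_221_v2.1) with TopHat (2.0.13 in the notes) and counted reads per gene with HTSeq 0.6.0. Upland cotton is a tetraploid, so both copies of a gene count on 1 ID. The deposited signal values are the authors' stage means of counts divided by DESeq 1.18.0 size factors. The column names say RPKM, which the steps in low values contradict. The table also holds the authors' mean over both stages, fold, log2 fold, p and adjusted p, and none was used. Of its 37505 entries 5 are summary entries of HTSeq and stayed out of sums and counts. Relative to the gene sum, ambiguous reads came to 0.600% and 0.717%, reads outside genes to 110.7% and 101.3%, and alignments that were not unique to 1420% and 188% at 0 and 12 DPA.

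Values shared by at least 40 genes that were no sum of smaller ones gave the 6 steps per stage, refined by least squares. A mean under 10 was resolved into reads where 1 set of whole reads gave it to within 1e-09. The procedure was tested on simulated data first. Estimated reads per library take all libraries of a stage to have equal normalized gene sums, which was not checked. Planned tests per library were run where reads were resolved at both stages.

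The members and lists were chosen with earlier results of these data known. Named genes were the 5 genes, the 8 other pathway genes, the 2 IDs on either side of each member (those informative are printed), the nearest 2 by log2(mean + 1) (the first is printed) and 5 fiber markers. Names came from the study's tables of matched records. The RefSeq gene table at hand (assembly Gossypium_hirsutum_v2.1) does not hold these IDs, so no coordinates, proteins or promoters are shown. Python 3.11.15, numpy 2.4.6, pandas 2.3.3, scipy 1.17.1 and matplotlib 3.10.9 were used. Alternatives were scaling by gene sums, pseudocounts of 1 and 5, a 4-fold threshold, a minimum mean of 10, a log2 scale for the test, leaving out each resolved library and pairing the stages by line, since the labels give each line at both stages.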

Additional observations from a re-analysis of the deposited data

How the results depend on the processing

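Of 47 alternative values, 6 were labelled as moved, by more than a limit on counting error or by over 1.5 times. None changed direction, which a pseudocount, a count or a share could not do. For Gorai.012G009500 the limit, 0.96, takes the fewest possible reads and is wide, so its scaled log2 ratio of 3.68 was not labelled as moved. Scaling each stage by its gene sum lowered every log2 ratio by 0.68 and gave 1.04 for CHI-1, 1.01 for F3'5'H and 2.04 for DFR, so that all 5 genes stayed at least 2-fold higher, beside 15.8% of genes. At 4-fold the number of members was 3, and 2 with both changes together (DFR and Gorai.012G009500, an alternative chosen after seeing the data), beside 9.54% of genes. Here too Gorai.012G009400 was counted at its lower bound, whereas the share takes genes without a read at 0 DPA as passing. A pseudocount of 5 gave 3.13 for Gorai.012G009500 and 1.01 for Gorai.012G009400. The value of Gorai.012G009400 was not labelled as moved, although its lower bound without a pseudocount was 2.30. For Gorai.012G009400, leaving out each of the 12 libraries in turn gave differences of 4.23 to 5.86 normalized counts with an exact permutation p of 0.00433 each time, the smallest those sizes allow (leaving out a 0 DPA library, all at 0, left 5.04), and lower bounds of 2.04 to 2.51 on the log2 scale. The stage tests of Gorai.012G009500, on both scales and without single libraries, were not run, because its 12 DPA reads could not be resolved. Pairing by line (replicate block), chosen after seeing the data, gave the same 5.04 for Gorai.012G009400 with an exact permutation p of 0.0312. With all 0 DPA values at 0 and all 12 DPA values above, this p and those without single libraries were fixed in advance. For the other results no paired analysis was possible, because they rest on stage means. Depth limits the 3GT genes most: 1 read in the shallowest library added 0.342 to a 0 DPA mean.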

Other observations

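The 12 DPA libraries of Gorai.012G009400 fell into 3 high and 3 low values, 7.72, 8.54 and 9.09 against 0.957, 1.90 and 2.06 normalized counts. The lowest of the high values was 3.75 times the highest of the low ones. Among 1272 genes with a 12 DPA mean of 4 to 6, all of them resolved into reads, 22 (1.73%) had a gap at least as large between the 3 highest and 3 lowest libraries, and the same 3 libraries (the deepest and the 2 shallowest) were highest in 150 (11.8%). With 1 to 10 reads per library, the exact Poisson 95% intervals of high and low libraries overlap (3.43 to 17.6 for one of the high ones against 0.249 to 7.43 for the highest of the low ones). Overlap of single intervals is no test of the split, so whether it exceeds counting error was not tested. The split was noticed in the data, and which fiber colors or lines fall on either side could not be determined here.

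Of the upstream genes, CHS4 and CHS6 could be resolved at 0 DPA, in the same libraries as Gorai.012G009500. CHS4 had 25, 11, 7, 8, 6 and 1 reads from the deepest to the shallowest library, or 15.0, 7.71, 5.99, 7.67, 6.13 and 2.05 normalized counts. CHS6 had 9, 5, 3, 12, 15 and 3 reads, or 5.40, 3.51, 2.57, 11.5, 15.3 and 6.16 normalized counts. Gorai.012G009500 and CHS4 were highest in the deepest library, with 5.40 and 15.0, and lowest in the shallowest, whereas CHS6 was highest in the fifth by depth, in which Gorai.012G009500 had 2.04. The 0 DPA means of CHS4 and CHS6 were nearly equal, at 7.43 and 7.41, and both genes were read in all 6 libraries.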
